A study of Mus musculus with 40 samples.

Results

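Trav7 subgroups 5 and 6 are V gene segments of the mouse T cell receptor alpha locus (Tcra). They were taken by name from the Tcra repertoire tables, as every V segment called Trav7-5 or Trav7-6 with or without the letter D or N. The annotation holds 6 such segments, and 5 of them have values here: Trav7d-5, Trav7n-5, Trav7n-6, Trav7-5 and Trav7-6, out of 111 V segments listed. Trav7d-6 has no row in the tables used here and was not analysed here. The series asks what the CTCF binding site at the Tcra enhancer Ea does in Tcra rearrangement, and it compares C57BL/6 mice that have this site (EACBE+/+, wild type) with mice homozygous for its loss (EACBE-/-). RNA of thymocytes from the thymus of mice aged 4 to 8 weeks was copied by 5′ RACE, a method that needs no V-specific primer and reads which V and which J segment each receptor transcript carries. There were 2 Tcra libraries of each genotype. The tables do not read the deleted site, so they hold no check of the genotype labels.

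As background, a developing T cell builds its receptor alpha chain by joining one Trav segment to one Traj segment. First joins tend to use Trav segments near the Traj array and Traj segments at its 5′ end, and later joins on the same chromosome replace them with Trav segments farther out and Traj segments farther 3′. Ea is the enhancer at the 3′ end of the locus that drives this recombination, and CTCF is a DNA-binding protein that helps to form chromatin loops. The Trav array of C57BL/6 mice holds repeated blocks of V segments, and the letters D and N in a name mark the duplicate copies of a segment. A Trav7 segment encodes the first part of the variable domain of the alpha chain, including its germline-encoded loops.

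The 6 segments lie on chromosome 14 of GRCm38.p6, the assembly behind mm10, and each is annotated as a V gene segment of 527 to 533 bp. In each copy, subgroup 5 is the outer member and subgroup 6 the one nearer the Traj array. The D copy comes first: Trav7d-5 (chr14:52835861-52836387) ends 1319 kb before Traj61, the first Traj segment, and Trav7d-6 (chr14:53020459-53020991) ends 1134 kb before it. The N copy follows, with Trav7n-5 (chr14:53146922-53147448) at 1008 kb and Trav7n-6 (chr14:53324676-53325208) at 830 kb. The original copy is nearest, with Trav7-5 (chr14:53530786-53531313) at 624 kb and Trav7-6 (chr14:53716760-53717291) at 438 kb. The stretch between the subgroup 5 and the subgroup 6 segment is alike in the 3 copies, at 184, 177 and 185 kb in the D, N and original copy. Among the 130 annotated Trav genes, the 6 segments are the 21st, 42nd, 55th, 76th, 95th and 114th from the outer end.

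Total counts were 10694 and 172388 in wild-type replicates 1 and 2, and 19085 and 163953 in EACBE-/- replicates 1 and 2. The shallower replicate 1 libraries set the precision of most values, and 5 V segments, none of Trav7, are listed in replicate 2 alone. The labels do not say whether the replicates were separate mice, and if they were not, p-values measure only technical spread. A count may be a read or a distinct receptor, so the intervals cover counting error only. A lower share of a V segment can come from fewer cells that use it or from less of its RNA per cell, and these cannot be told apart here. The sources used here do not give how reads of near-identical copies were assigned to one copy or another, so every value of a single copy is uncertain in that respect. A two-sided exact permutation test of 2 libraries against 2 gives no p below 0.333. Shares of single segments whose libraries did not overlap between genotypes have this p throughout.

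The first question was how much each segment was used. The 5 segments together held 500 and 7203 counts in the wild-type libraries and 1044 and 8666 in the EACBE-/- libraries. These are 4.68% and 4.18% of all wild-type Tcra counts and 5.47% and 5.29% of EACBE-/- counts. The means were 4.43% ± 0.352 (SD, n = 2) and 5.38% ± 0.131 (SD, n = 2), a difference of 0.951 percentage points with both EACBE-/- libraries above both wild-type ones. Subgroup 5 was used more than subgroup 6 in all 4 libraries. Its 3 copies took 66.1 to 72.1% of the counts of the 5 segments, although subgroup 6 is represented by only 2 copies with values.

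Trav7-5, the original copy of subgroup 5, was the most used of the 5 in wild type. It held 187 and 2735 wild-type counts and 290 and 3297 EACBE-/- counts, or 1.75% and 1.59% against 1.52% and 2.01% of the library. The means of 1.67% ± 0.115 and 1.77% ± 0.347 (SD, n = 2 each) were closer to each other than the EACBE-/- replicates were. In each library it ranked between 13th and 22nd of the 106 V segments listed in both replicates.

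Trav7d-5, the outermost of the 5, was higher in EACBE-/- thymus. It held 152 and 1973 counts in wild type, or 1.42% and 1.14% of the library, and 391 and 2872 counts in the EACBE-/- libraries, or 2.05% and 1.75%. Both EACBE-/- libraries were above both wild-type ones, and the ratio of EACBE-/- to wild type was 1.44 in replicate 1 and 1.53 in replicate 2. The mean went from 1.28% ± 0.196 to 1.90% ± 0.210 (SD, n = 2 each). The log2 change of 0.57 (SE 0.30) did not pass edgeR's quasi-likelihood test with Benjamini-Hochberg adjustment (adjusted p = 0.377).

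Trav7-6, the original copy of subgroup 6 and of the 5 the one nearest the Traj array, was 1.34-fold higher in EACBE-/- thymus. Its shares were 0.785% and 0.650% in wild type against 1.05% and 0.878% in EACBE-/-, from 84, 1121, 201 and 1439 counts, and the genotypes did not overlap. Its log2 change of 0.43 (SE 0.33) did not pass either (adjusted p = 0.544 in edgeR). Trav7n-6, the N copy of the same subgroup, did not share this direction in both replicates. It took 0.617% and 0.768% of wild-type counts against 0.671% and 0.595% of EACBE-/- counts, and its libraries overlapped between genotypes.

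Trav7n-5 was rarely counted. It held 11 and 50 counts in wild type against 34 and 83 in EACBE-/-, or 0.103% and 0.0290% against 0.178% and 0.0506% of the library, and the genotypes overlapped. The subgroup 5 copies on either side of it had far more counts in every library. Its share was higher in replicate 1 than in replicate 2 in both genotypes, by 3.55-fold in wild type and 3.52-fold in EACBE-/-, and the cause was not tested.

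**Figure D1:**
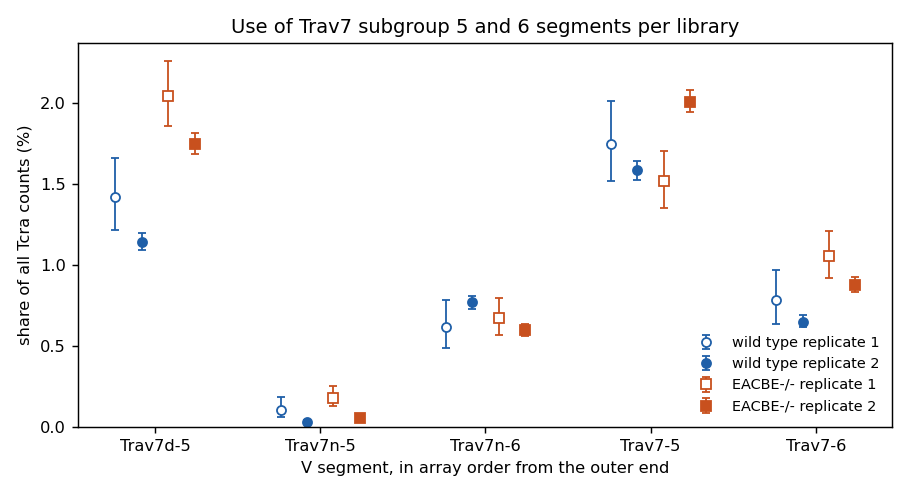
Share of all Tcra counts (%) taken by each Trav7 subgroup 5 and 6 segment, in array order from the outer end, with 1 point per library (open, replicate 1; filled, replicate 2; circles, wild type; squares, EACBE-/-) and 95% Wilson intervals. The genotypes separate for Trav7d-5 and Trav7-6, overlap for the other 3 segments, and Trav7n-5 lies near 0 in every library.

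By use, the order in wild type was Trav7-5, Trav7d-5, Trav7-6, Trav7n-6 and Trav7n-5. Trav7-6 and Trav7n-6 did not differ beyond their spread there, while the other neighbours in this order did not overlap. In EACBE-/- thymus the first pair was reversed in mean and overlapped, with 1.52% and 2.01% for Trav7-5 against 2.05% and 1.75% for Trav7d-5. Trav7-6 and Trav7n-6, which overlapped in wild type, did not overlap in EACBE-/-.

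Ratios within a library compare the copies without the library total. Trav7d-5 held 0.813 and 0.721 counts per Trav7-5 count in wild type, against 1.35 and 0.871 in EACBE-/-. The D copy of subgroup 5 was thus higher relative to the original copy in both EACBE-/- libraries, and the genotypes did not overlap (two-sided exact permutation p = 0.333, the smallest possible). Trav7n-6 held 0.786 and 1.18 counts per Trav7-6 count in wild type, against 0.637 and 0.678 in EACBE-/-. For subgroup 6 the N copy was thus lower relative to the original copy, again without overlap. Trav7n-5 held 0.0588 and 0.0183 counts per Trav7-5 count in wild type and 0.117 and 0.0252 in EACBE-/-, which overlap.

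In edgeR's test across V segments, 0 of the 5 segments passed an adjusted p of 0.05, against 5.66% of the 106 V segments tested, and the 6 that passed were all lower in EACBE-/-. None of the 5 had an unadjusted p under 0.05, as 17.0% of all V segments did, and DESeq2 called 0 as well. The median log2 change of the 5 segments was 0.43, and that of all 106 was -0.13. Shares that did not overlap between genotypes and were higher in EACBE-/- were found for 2 of the 5 segments and for 25.5% of all V segments, and such shares that were lower for 0 of the 5 and for 24.5%. In simulated libraries of these depths, this test called 16% of V segments with 4-fold changes and 0% with 1.5-fold changes. The simulation gave rare and abundant V segments the same dispersion. It thus cannot say whether a change of the size seen for Trav7d-5, an often counted segment, was detectable.

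The rest of the Trav7 family gave other values. The 8 listed segments of subgroups 1 to 4 together took 9.51% and 8.56% of wild-type counts against 6.93% and 6.23% of EACBE-/- counts, so both EACBE-/- libraries were below both wild-type ones. In the test, 2 of the 8 fell, 0 rose and 6 did not pass. Trav7-1, of the outer end of the array, fell by 2.87 on the log2 scale (adjusted p = 0.0357 in edgeR). Trav7-2, of the original copy, fell by 1.63 (adjusted p = 0.0258 in edgeR). The median log2 change of these 8 was -0.85.

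The array neighbours of the 6 segments, the nearest 2 annotated V segments on each side, had a median log2 change of 0.11. None of the 23 with values passed the test. Trav7d-5 lay beside Trav12d-1, with 0.683% and 0.971% of wild-type counts against 1.17% and 1.32% of EACBE-/- counts. Trav7d-5 and Trav12d-1, of another Trav family, thus both had EACBE-/- libraries above the wild-type ones. So did Trav13d-1, with 1.09% and 0.712% against 1.70% and 1.46%. The other 2 of its 4 neighbours overlapped between genotypes. Trav6d-6 took 0.383% and 0.986% in wild type against 0.555% and 0.944%, and Trav11d took 0.131% and 0.00464% against 0.0996% and 0.0122%. Around Trav7-6, Trav5-4 took 1.71% and 1.56% in wild type against 2.38% and 2.35% in EACBE-/-, and Trav8-2 took 0.645% and 0.727% against 0.440% and 0.448%. The neighbours of Trav7-6 thus had values in both directions.

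The second question was which Traj segments the members were joined to. The 43 Traj segments counted were read as a 5′ list (Traj61 to Traj42, 13 segments counted), a middle list (Traj41 to Traj22, 16) and a 3′ list (Traj21 to Traj1, 14). The 3′ list is the end that joins reach last. The members' shares for these lists are percentages of the segment's own counts, so they do not depend on how much the segment was used.

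In wild type, the Traj choice of the segments with enough counts followed their place in the array, except between Trav7n-6 and Trav7d-5. Segments nearer to the Traj array than these 2 had less of the 3′ list. Trav7-6, the nearest, had 7.14% and 10.4% of its wild-type counts in the 3′ list, and Trav7-5, the next, had 16.6% and 21.4%. Trav7n-6 had 33.3% and 45.7%, and Trav7d-5, the outermost, had 33.6% and 42.6%. The last 2 overlapped, and each was above Trav7-5, which was above Trav7-6, in both libraries. The 5′ list ran almost the opposite way: Trav7-6 had 57.1% and 51.2% there, Trav7-5 had 32.6% and 29.9%, Trav7d-5 had 22.4% and 26.5%, and Trav7n-6 had 18.2% and 12.4%.

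In EACBE-/- thymus, the 3′ list held less of the joins of the 3 outer segments with enough counts, and most of all for Trav7d-5. Its 3′ share was 16.1% and 17.5%, from 63 of 391 and 504 of 2872 counts, where wild type had 51 of 152 and 840 of 1973. The mean was 16.8% ± 1.02 against 38.1% ± 6.38 in wild type (SD, n = 2 each), a difference of -21.2 percentage points, with -17.4 points in replicate 1 and -25.0 in replicate 2. The 95% Wilson intervals of the deeper libraries were 16.2 to 19.0% and 40.4 to 44.8%. The higher EACBE-/- value, 17.5%, was well below the lower wild-type one, 33.6%. With every V-J pair given a weight of 1 the difference was -0.774 points and the genotypes overlapped. That value was nearly fixed in advance, since 40 to 43 of the 43 Traj segments were joined to Trav7d-5 in all 4 libraries. It thus cannot show where the difference lies.

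Both other lists held more of the joins of Trav7d-5 in EACBE-/- thymus. Its 5′ list went from 22.4% and 26.5% in wild type to 34.0% and 35.2% in EACBE-/-, and its middle list from 44.1% and 31.0% to 49.9% and 47.2%. Neither list overlapped between genotypes.

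Trav7n-6, the next nearer segment with enough counts, differed from Trav7d-5 in where the remainder went. Its 3′ share was 18.0% and 32.8% in EACBE-/-, against 33.3% and 45.7% in wild type, a mean difference of -14.1 points, which was -6.69 if EACBE-/- replicate 1 was left out, -7.94 if wild-type replicate 2 was, and -21.5 if EACBE-/- replicate 2 was. With the array split at Traj32 the difference was -5.08 points and the genotypes overlapped. The EACBE-/- library of replicate 2 came within 0.513 points of the wild-type library of replicate 1, and the 95% Wilson interval of that wild-type library, on 66 counts, was 23.2 to 45.3%. Its middle list took 48.5% and 41.9% in wild type against 64.1% and 53.6% in EACBE-/-. Its 5′ list hardly differed, with a mean of 15.3% ± 4.10 in wild type and 15.8% ± 3.13 in EACBE-/- (SD, n = 2 each), and overlapped.

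Trav7-5, with the most counts in wild type, had a smaller difference. Its 3′ share was 16.6% and 21.4% in wild type against 10.7% and 16.1% in EACBE-/-, a mean difference of -5.60 points, which was -2.90 if EACBE-/- replicate 1 was left out and -3.18 if wild-type replicate 2 was. The genotypes did not overlap, but EACBE-/- replicate 2 lay 0.472 points below wild-type replicate 1, which rests on 187 counts. Its 5′ share was 32.6% and 29.9% in wild type against 43.1% and 36.2% in EACBE-/-, a mean difference of 8.41 points, which was 4.97 if EACBE-/- replicate 1 was left out. With every V-J pair given a weight of 1 it was 0. That value was nearly fixed in advance, since 40 or 43 of the 43 Traj segments were joined to Trav7-5 in every library.

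Trav7-6 had little 3′ use in either genotype. Its 3′ share in EACBE-/- was 7.96% and 6.81%, which overlapped the wild-type values of 7.14% and 10.4%. Its 5′ share, unlike that of Trav7d-5 and Trav7-5, was lower in EACBE-/-, at 44.8% and 49.6% against 57.1% and 51.2%, and its middle share was higher, at 47.3% and 43.6% against 35.7% and 38.4%. Neither overlapped between genotypes, though the 5′ difference was only -1.59 points in replicate 2. Its mean was -6.98 points, and 1.27 points when the array was split at Traj32 instead.

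Trav7n-5 had too few counts for a profile. Its 3′ list held 2 of 11 and 26 of 50 wild-type counts and 4 of 34 and 16 of 83 EACBE-/- counts, and the genotypes overlapped.

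**Figure D2:**
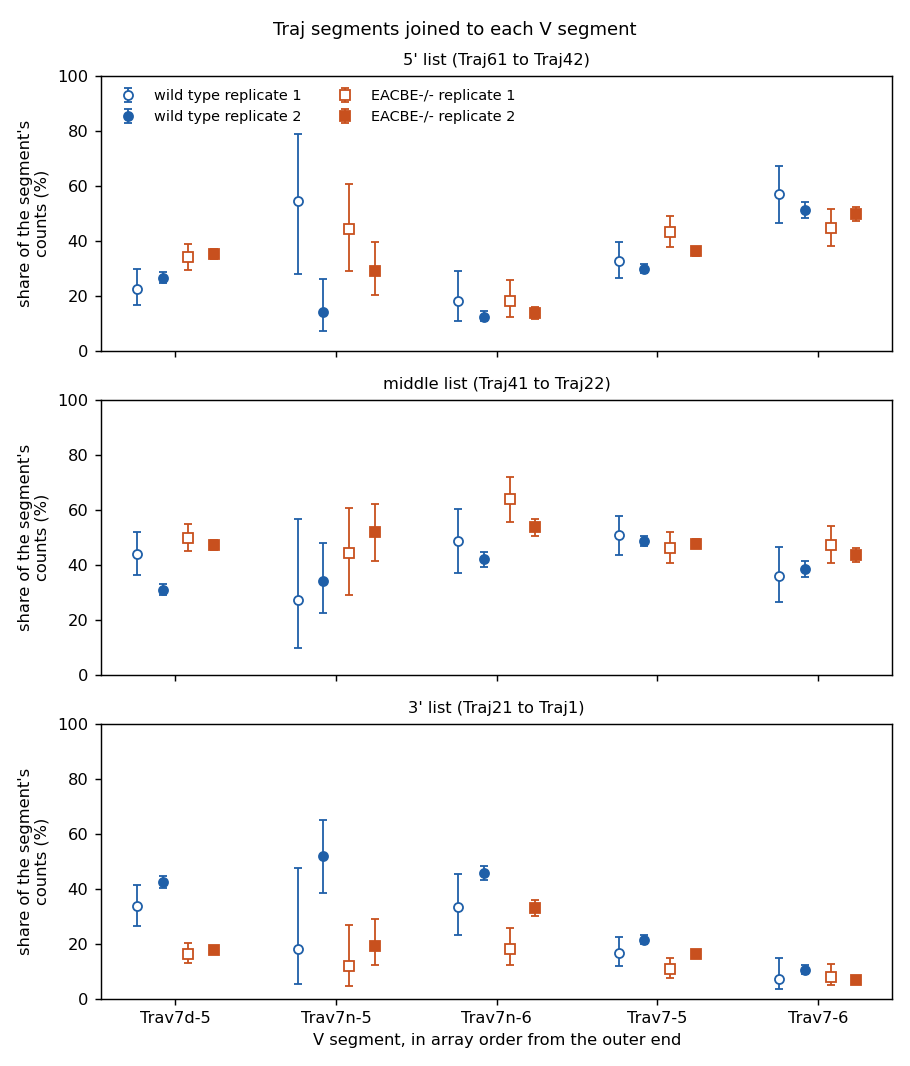
Share of each segment's own counts (%) in the 5′, middle and 3′ Traj lists, from top to bottom, with segments in array order, 1 point per library and 95% Wilson intervals (symbols: circles, wild type; squares, EACBE-/-; open, replicate 1; filled, replicate 2). In the 3′ panel Trav7d-5 separates most, from 33.6 and 42.6% to 16.1 and 17.5%, and Trav7-6 overlaps.

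Differences between copies within a library do not depend on the library total. The 3′ share of Trav7d-5 exceeded that of Trav7-5 by 17.0 and 21.1 points in wild type and by 5.42 and 1.44 points in EACBE-/-. The D and the original copy of subgroup 5, far apart in Traj choice in wild type, were thus close in EACBE-/-, and the genotypes did not overlap (two-sided exact permutation p = 0.333, the smallest possible). Trav7n-6 exceeded Trav7-6 by 26.2 and 35.3 points in wild type and by 10.0 and 26.0 points in EACBE-/-. The N and the original copy of subgroup 6 stayed further apart, and the gap between genotypes was only 0.18 points between the nearest libraries. In these 2 contrasts the pairs compared are different copies, so D and N copies were not compared within one subgroup.

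The mean position of the joined Traj segment, in kb after the start of Traj61, does not rest on a choice of lists. For Trav7d-5 it was 34.5 and 36.4 kb in wild type against 29.3 and 29.5 kb in EACBE-/- libraries. For Trav7-5 it was 30.5 and 31.3 kb against 26.2 and 28.6 kb. The D and the original copy of subgroup 5 were thus joined nearer the 5′ end of the Traj array in both EACBE-/- libraries. For Trav7n-6 it was 35.6 and 40.1 kb against 33.1 and 36.7 kb, and for Trav7-6 it was 21.8 and 24.05 kb against 24.6 and 23.0 kb, and both subgroup 6 copies overlapped between genotypes.

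Distances between whole profiles were taken over all 43 Traj segments. The total variation distance is the percentage of one profile that would have to be moved to obtain the other. Trav7d-5 and Trav7-5 were 31.9% and 23.4% apart in the wild-type libraries and 19.6% and 9.10% apart in the EACBE-/- ones. Trav7n-6 and Trav7-6 were 53.4% and 47.3% apart against 40.8% and 44.1%. In replicate 1 both distances were lower in EACBE-/- by a like amount. Such distances are larger where counts are few. Wild-type replicate 1 held 66 to 187 counts of each of these segments, and EACBE-/- replicate 1 held 128 to 391. The replicate 1 distances thus cannot compare the genotypes. In the deeper replicate 2 the subgroup 5 distance differed more than that of subgroup 6. Between genotypes, the profile of Trav7d-5 moved by 31.4% in replicate 1 and 26.9% in replicate 2, and that of Trav7n-6 by 37.0% and 19.1%. The profile of Trav7-5 moved by 22.8% and 13.8%, and that of Trav7-6 by 31.5% and 12.8%. Trav7d-5 moved most in replicate 2 but not in replicate 1, so the order of the 4 segments depended on the replicate. In replicate 1 the segment that moved most, Trav7n-6, was the one with the fewest counts. Replicates of one genotype were 12.3 to 31.3% apart for these 4 segments.

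**Figure D3:**
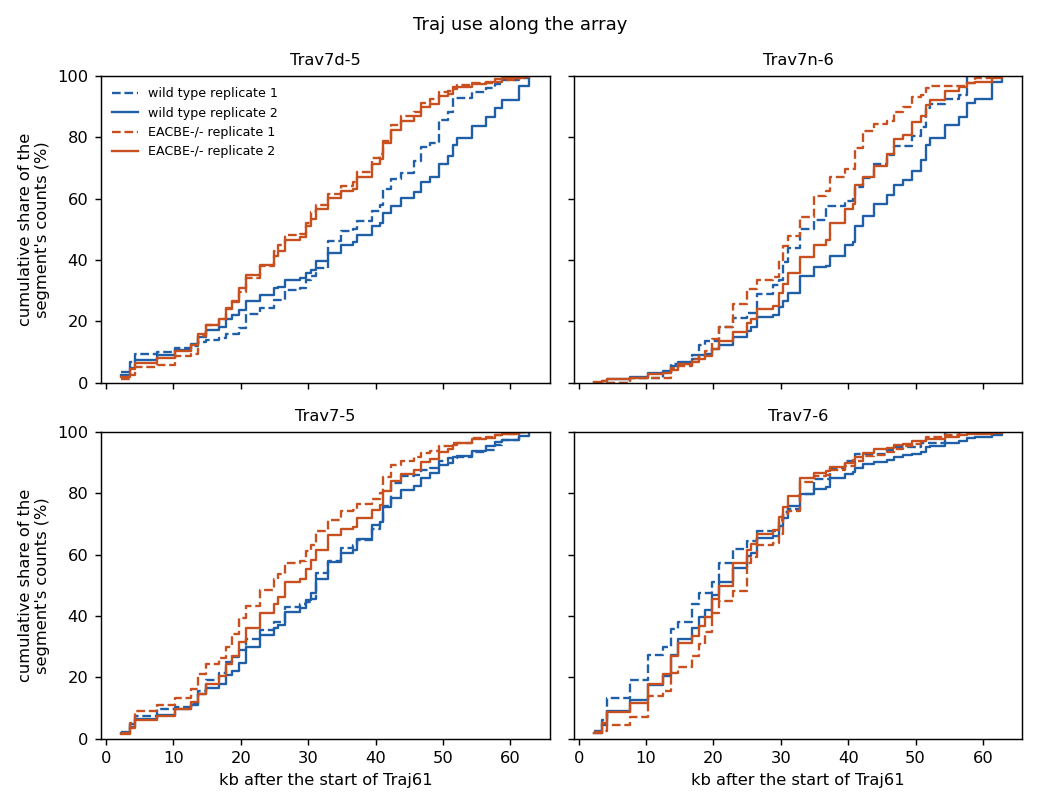
Cumulative share of a segment's counts (%) along the Traj array, plotted against the distance (kb) after the start of Traj61, for Trav7d-5, Trav7n-6, Trav7-5 and Trav7-6 (blue, wild type; orange, EACBE-/-; dashed, replicate 1; solid, replicate 2). For Trav7d-5 both EACBE-/- curves run above both wild-type curves over the 3′ part of the array, for Trav7-6 the 4 curves nearly coincide there, and Trav7n-6 starts late in all 4 libraries.

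Single Traj segments showed where along the array these lists differ. Partners were ranked by the unweighted mean of both replicates, to which the small replicate 1 libraries contribute as much as the deep ones. In wild type the most used partners of Trav7d-5 were then Traj15, at 7.24% and 4.36% of its counts, then Traj31 and Traj23. In EACBE-/- they were Traj23, at 4.09% and 5.33%, then Traj49 and Traj22, so no 3′ segment was among the first 3. In wild-type replicate 2 alone, Traj4 led at 4.71%, followed by Traj15 at 4.36% and Traj9 at 3.801%, which are all of the 3′ list. Trav7n-6 was joined most to Traj31 in wild type, at 6.06% and 5.74%, followed by the 3′ segments Traj12 and Traj6. In EACBE-/- it was joined most to Traj23, at 7.03% and 5.95%, followed by Traj31 and Traj30, which are all of the middle list.

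By the same mean, Trav7-5 had middle-list partners first in both genotypes. Traj32 led in wild type, at 8.56% and 4.42%, and Traj40 led in EACBE-/-, at 5.52% and 4.64%. Trav7-6 had 3 partners of the 5′ list first in wild type, Traj52, Traj49 and Traj56, with Traj52 at 8.33% and 5.00%. In EACBE-/- its first partners were Traj31, at 9.45% and 5.77%, Traj39 and then Traj52. In the replicate 2 libraries alone, Trav7-5 was joined most to Traj31 in wild type (5.59%) and Traj37 in EACBE-/- (4.91%), and Trav7-6 to Traj49 (6.78%) and Traj40 (7.71%). The 5′ end was nearly unused by Trav7n-6: Traj58, Traj57 and Traj56 held 0, 0 and 0 of its 66 counts in wild-type replicate 1 and 0, 6 and 9 of its 1324 counts in wild-type replicate 2. Trav7-6 had 20, 31 and 49 of 1121 counts in these 3 segments in wild-type replicate 2.

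Each join of a V and a Traj segment was also tested as a pair. Of the 215 possible pairs of the 5 segments, 131 had enough counts to be tested: 41 of Trav7d-5, 39 of Trav7-5, 26 of Trav7-6, 24 of Trav7n-6 and 1 of Trav7n-5. None of the 131 passed an adjusted p of 0.05 in edgeR, against 3.35% of the 2417 pairs tested over all V segments (0.372% higher and 2.98% lower in EACBE-/-). An unadjusted p under 0.05 was found for 19 of the 131, or 14.5%, and for 17.4% of all pairs, and DESeq2 called 0 of the members' pairs. Of the 19, 15 were pairs of Trav7d-5. Pairs whose libraries did not overlap were higher in EACBE-/- for 45 of the 131 and lower for 20, where 25.4% and 21.9% of all pairs were. The share of members' pairs with a low p was thus near that of all pairs.

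Within Trav7d-5 the direction of the pairs differed between the Traj lists. All 15 of its tested middle pairs and 12 of its 13 tested 5′ pairs had a positive log2 change, with medians of 1.11 and 1.08, and 10 of its 13 tested 3′ pairs had a negative one, with a median of -0.78. These values include the log2 change of 0.57 of Trav7d-5 itself. Some pairs met the count filter only through the genotype where they were high. The directions were not particular to Trav7d-5. Shares of a segment's own counts do not depend on how much it was used. By these, 10 of 13 5′ and 12 of 16 middle Traj segments of Trav7d-5 had a higher mean in EACBE-/-. Of its 14 3′ segments, 13 had a lower one. By the same measure, summed over all other V segments, 13 of 13 5′ and 11 of 16 middle Traj segments had a higher mean share in EACBE-/-. All 14 of their 3′ segments had a lower one. The pair with the lowest p was Trav7d-5 with Traj38, which had 0 and 9 counts in wild type against 7 and 47 in EACBE-/- (log2 change 2.73, adjusted p = 0.0786 in edgeR). Trav7d-5 with Traj33 had 2 and 22 counts in wild type against 14 and 70 in EACBE-/- (adjusted p = 0.106 in edgeR). Trav7d-5 with Traj44 had 0 and 23 against 9 and 71, and with Traj49 had 2 and 49 against 23 and 101 (adjusted p = 0.111 for each in edgeR). These 4 joins had both EACBE-/- libraries above both wild-type ones as shares of the library. The pairs with Traj38 and Traj44 met the count filter only through the EACBE-/- libraries, where they were high. Their rise and low p are thus no separate support.

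The lowest p outside Trav7d-5 was that of Trav7n-6 with Traj6, a 3′ segment. It had 4 and 59 counts in wild type against 1 and 13 in EACBE-/-, log2 change -2.24, with adjusted p = 0.116 in edgeR. This pair met the count filter only through the wild-type libraries, where it was high. Trav7d-5 with Traj43 had 3 and 34 counts in wild type against 11 and 127 in EACBE-/- (adjusted p = 0.130 in edgeR). The remaining pairs among the 8 with the lowest p were Trav7d-5 with Traj22 (5 and 45 against 20 and 122 counts) and with Traj34 (4 and 31 against 14 and 102 counts). Of these 8 pairs, the 7 of Trav7d-5 all lay in the 5′ or middle list and were higher in EACBE-/-.

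Because reads of near-identical copies may be split between names, the copies were also summed, for these segments and all other duplicated Trav segments. This sum does not depend on how the copies were told apart within a subgroup. Used as V segments, the log2 change in edgeR was 0.33 for subgroup 5 (adjusted p = 0.192) and 0.18 for subgroup 6 (adjusted p = 0.410), so neither passed, where 25.5% of the 47 summed V segments did. Of 84 summed pairs of the 2 subgroups, 11 passed in edgeR's test, which is 13.1%, against 18.5% of the 1460 pairs tested. There were 5 that rose, where 3.97% of all pairs did, and 6 that fell, where 14.5% of all pairs did.

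The 5 that rose all belonged to subgroup 5, with 5′ or middle Traj segments. Subgroup 5 with Traj44 had 3 and 61 counts in wild type against 22 and 159 in EACBE-/- (log2 change 1.60, adjusted p = 0.00937 in edgeR). Subgroup 5 with Traj38 had 0 and 42 against 13 and 121 (log2 change 1.77). It met the count filter only through the EACBE-/- libraries, where it was high. Traj43, Traj47 and Traj34 were the other partners, with log2 changes of 1.31, 1.29 and 1.21.

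The 6 that fell were all with Traj segments near the 3′ end of the array. Subgroup 5 with Traj2, the last Traj segment counted, had 1 and 101 counts in wild type against 3 and 9 in EACBE-/- (log2 change -2.76, adjusted p = 0.00169 in edgeR), and here the libraries overlapped as shares, so the lower value was seen in replicate 2 alone. Subgroup 5 with Traj4 had 6 and 130 against 4 and 39 (log2 change -1.60), and its pairs with Traj7 and Traj5 had log2 changes of -1.56 and -1.54. Subgroup 6 with Traj6 had 4 and 68 against 1 and 17 (log2 change -2.02, adjusted p = 0.00937 in edgeR), and with Traj4 it had 0 and 83 against 1 and 18 (log2 change -1.95), the latter with overlapping libraries. Subgroup 6 with Traj6 and subgroup 5 with Traj7 met the count filter only through the wild-type libraries, where they were high.

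Whether these calls rest on the deep libraries could not be told by setting each aside in turn. Such a fit keeps 1 library of that genotype, and some of the 11 pairs then had no test. The calls are thus not shown to hold in the shallow libraries. Pairs still tested kept their direction. With the deep wild-type library set aside, the log2 change of subgroup 5 was 1.88 with Traj44, 0.74 with Traj47 and -1.27 with Traj4. With the deep EACBE-/- library set aside, these values were 1.75, 1.07 and -1.75. DESeq2 called 0 of the 11, and 24 of all 2013 summed pairs it tested.

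The 5 segments were then set against the rest of the array. Summed over all 5, the 3′ list took 22.4% and 30.2% of wild-type counts against 13.1% and 17.0% in EACBE-/-, and for the other 101 V segments listed in both replicates it held 24.1% and 30.2% against 14.7% and 17.1%. The mean differences between genotypes were -11.3 points for the 5 segments and -11.2 points for the rest, so the sum over the 5 segments had nearly the same difference as the rest of the repertoire. Without wild-type replicate 2 the difference of the 5 segments was -7.36 points. It was -2.07 points when every V-J pair counted as 1, and the genotypes then overlapped. The 5′ list differed by 5.66 points for the 5 segments and 6.90 points for the rest. It was among the single copies that the values ran from -21.2 to -1.40 points in the 3′ list.

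Distance from the Traj array was compared with Traj choice over the 95 Trav segments with at least 100 counts in both replicate 2 libraries. These points share a library and, in part, their sequence through duplication, so the correlation is a description. The 3′ share had a Spearman correlation of 0.68 with distance in wild-type replicate 2 (Pearson 0.71) and of 0.58 in EACBE-/- replicate 2 (Pearson 0.58). In wild-type replicate 2 the 4 segments with enough counts stood 19th (Trav7n-6), 29th (Trav7d-5), 75th (Trav7-5) and 89th (Trav7-6) of 95 from the highest 3′ share. In EACBE-/- replicate 2 Trav7n-6 stood 7th, Trav7d-5 62nd, Trav7-5 69th and Trav7-6 89th. Trav7d-5 thus moved from above the median of the 95 segments (37.0% in wild type) to below it (20.1% in EACBE-/-), and Trav7n-6 was above it in both. Other segments crossed it too. Trav12d-1, beside Trav7d-5, went from 37.3% to 18.3%, and Trav13n-1, a neighbour of Trav7n-5, from 39.8% to 17.8%. Trav13d-1, the other neighbour on that side of Trav7d-5, was below the median in both, at 35.7% and 17.0%.

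**Figure D4:**
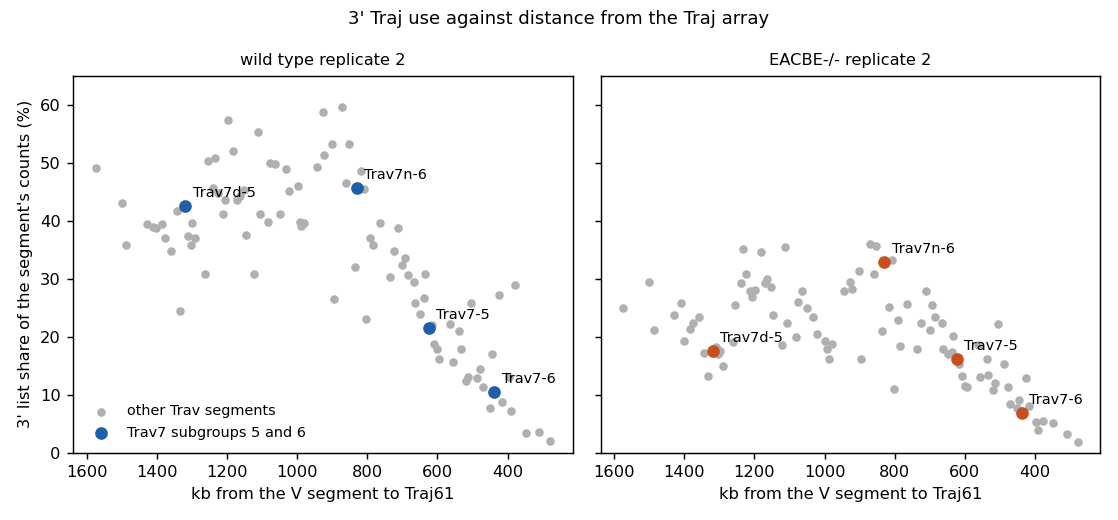
3′ list share of a segment's own counts (%) against the distance (kb) from the segment to Traj61 for the Trav segments with at least 100 counts in both replicate 2 libraries (left, wild type; right, EACBE-/-; grey, other Trav segments; coloured, Trav7 subgroups 5 and 6). Trav7d-5 lies near the other outer segments in wild type, at 42.6%, and near Trav7-5 in height in EACBE-/-, at 17.5% against 16.1%.

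The array neighbours gave the 3′ share of other V families at the same place. Trav12d-1 and Trav13d-1, on one side of Trav7d-5, had 37.3% and 35.7% in wild-type replicate 2 and 18.3% and 17.0% in EACBE-/- replicate 2, where Trav7d-5 had 42.6% and 17.5%. On the other side, Trav11d had 50% and 35% on only 8 and 20 counts, and Trav6d-6, beyond it, had 24.4% and 13.2%. These 4 neighbours thus had a lower 3′ share in the deep EACBE-/- library than in the deep wild-type one, but in replicate 1 Trav6d-6 went the other way, from 7.32% of 41 counts in wild type to 13.2% of 106 in EACBE-/-.

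The D copy block around Trav7d-6, which has no value of its own here, held neighbours with 30.9 to 55.3% of 3′ use in wild-type replicate 2 and 18.5 to 35.6% in EACBE-/- replicate 2. The 3 neighbours of Trav7n-5 with values, in the N copy, had 39.8 to 46.0% and 17.8 to 20.5% in these libraries. Around Trav7-5 the 4 neighbours spanned 18.7 to 30.7% and 13.2 to 20.1% in these libraries, which hold the values of Trav7-5 itself. In EACBE-/- replicate 1 Trav7-5, at 10.7%, lay below their 11.1 to 15.7%. Trav7n-6, at 45.7% and 32.8% in replicate 2, lay within the 23.1 to 48.5% and the 12.5 to 33.2% of its neighbours. The low ends there are those of Trav5n-4, on 13 and 8 counts. Trav7-6 lay within the range of its neighbours in wild-type replicate 2 (7.65 to 27.2%) and below it in EACBE-/- replicate 2 (7.69 to 12.8%), at 6.81%. In EACBE-/- replicate 1 it lay within their range, at 7.96% in 3.57 to 9.23%.

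Over all 43 Traj segments, 32 V segments outside Trav7 had at least 100 counts in every library and could be compared with the 5 segments summed. The nearest profile was that of Trav6-6, with a mean distance of 12.5% over the 4 libraries (21.6% and 6.74% in wild type, 14.5% and 7.13% in EACBE-/-). Trav13-1 followed at 15.1% and Trav14d-1 at 15.2%. Such distances are larger where counts are few, and the part of depth in this order was not tested. Trav6-6 held 297 and 5407 counts in wild type and 666 and 7319 in EACBE-/-. Trav6-6 and Trav13-1 are both neighbours of Trav7-5.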

How the data were processed

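The authors deposited each Tcra and Trd repertoire library as a table of counts, V segments against J segments, made from thymocyte RNA by template-switching 5′ RACE per the labels' protocols. The submitters' processing notes name mm10 and, with no role given, Juicer 1.13.02, HiC-Pro 2.11.1, Bowtie2 2.3.4.3 and 2.20.8, cutadapt 0.4.4 and bedtools 2.26.0. The sources used here do not name the tool that assigned segments. Of 40 samples, the 4 Tcra libraries carry the comparisons. Amplification would add spread if counts are reads.

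All 154 segments of the Tcra tables matched the RefSeq annotation of GRCm38.p6 by symbol. Shares are counts over the table total. Intervals are 95% Wilson intervals. V segments (106 listed in both replicates) and V-J pairs were tested over the whole table by the quasi-likelihood test of edgeR 4.0.16 in R 4.3.3 (glmQLFit, glmQLFTest), with library sizes set to the table totals, without TMM factors, filterByExpr at minimum counts of 10 and 15, and Benjamini-Hochberg adjustment at 0.05. Exact permutation tests of shares were two-sided. Simulated tables with known changes were used to test the fits. On 4558 pairs, 24.5% of 4-fold and 0% of 1.5-fold changes were called.

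The members and lists were chosen with earlier results of these data known. Named were all members, the 8 pairs with the lowest p, the top 3 Traj segments per member and genotype, other Trav7 segments past the threshold, the nearest 2 neighbours on each side, and the 3 most alike V segments. The alternatives run were DESeq2 1.42.0, TMM factors, no filter, totals over shared segments, copies summed, other list bounds, each pair counted once, each library left out and the replicate number as a block. Alternatives to the summed pair test were added after the data were seen. Other steps used Python 3.11.15 with pandas 2.3.3, numpy 2.4.6, scipy 1.17.1 and matplotlib 3.10.9.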

Additional observations from a re-analysis of the deposited data

How the results depend on the processing

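The mean share of the 5 segments stayed higher in EACBE-/- and their mean 3′ share lower under every alternative run. With 1 library left out, the differences ranged from 0.702 to 1.20 points for the share, from -15.1 to -7.36 points for the 3′ list and from 4.03 to 7.30 points for the 5′ list. With each V-J pair counted once they were 0.406, -2.07 and 0.937 points, and the genotypes overlapped for each. In that setting replicate 2 holds 42 or 43 of the 43 pairs of each member but Trav7n-5. With the array split at Traj32 the 5′ difference was 11.6 points. Members called among V segments stayed at 0 except with a replicate block, with 1. Member pairs called ranged from 0 to 3 with 1 library left out (3 without wild-type replicate 1), and were 36 with a replicate block and 11 with copies summed. Summed pairs called, 11, were 0 with DESeq2, 35 with a replicate block and 0 to 10 with 1 library left out (0 without wild-type replicate 2, 2 without EACBE-/- replicate 2, 7 without EACBE-/- replicate 1). A fit with 1 library left out keeps 1 library of a genotype, so fewer calls there cannot be told from lost power. The labels do not say what a replicate number stands for. Same-numbered libraries deviated together (r = 0.740 over the 106 V segments), as a hint from the data. The block moved all V calls from 6 to 49 and all pair calls from 81 to 716, and Trav7d-5, with a log2 change of 0.58, passed there (adjusted p = 0.00526 in edgeR). All pair calls were 19 with DESeq2, 129 without a filter, and 150, 0, 46 and 8 without wild-type replicate 1, wild-type replicate 2, EACBE-/- replicate 1 and EACBE-/- replicate 2. All V calls were 3, 4, 2 and 4 in that order, and 12 with copies summed. Of 105 alternatives for single segments, 93 kept direction and side of the threshold and 11 turned direction. The log2 changes ranged with 1 library left out from -0.26 to 1.94 for Trav7n-5, -0.28 to 0.034 for Trav7n-6 and -0.13 to 0.27 for Trav7-5. The 5′ difference ranged from -18.0 to 22.5 points for Trav7n-5 (-5.36 without EACBE-/- replicate 1) and from -2.43 to 3.37 for Trav7n-6 (-1.75 without EACBE-/- replicate 1). The 3′ difference of Trav7-6 ranged from -3.05 to 0.242. With each pair counted once it was 4.75 points for Trav7-6 and 0.150 for Trav7n-6, and with the array split at Traj32 the 5′ difference of Trav7-6 was 1.27. The cause was not tested.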

Other observations

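The Trd tables, which count joins to Trdj segments and hold 1744, 28093, 5615 and 47158 counts in wild-type replicates 1 and 2 and EACBE-/- replicates 1 and 2, list some of these segments in replicate 2 alone. Wild-type replicate 2 had 3 counts of Trav7d-5, 4 of Trav7-5 and 1 of Trav7-6, together 0.0285% of the table (95% Wilson interval 0.0144 to 0.0562%). EACBE-/- replicate 2 had 2 counts of each of the 3, together 0.0127% (0.00583 to 0.0278%). All of these counts were joins to Trdj1, and Trav7n-6 was listed at 0 in EACBE-/- replicate 2. The intervals overlap, and no difference was detectable at this depth.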
